A study of Mus musculus with 9 samples.

Results

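The transcription factor NF-kB and proteins that regulate it were followed in the mouse retina through 10 genes. They were the cytoplasmic inhibitors Nfkbia and Nfkbie, the nuclear members of the same family Nfkbiz and Bcl3, and the ubiquitin-editing enzyme Tnfaip3. The subunit genes were Nfkb1, Nfkb2, Rel, Rela and Relb. All probe sets annotated with 1 symbol of these genes were taken, and the brightest of them, by its mean over 9 arrays, stood for the gene. Of the 10 genes, 9 had such a probe set, 18 probe sets in all, out of 18193 genes and 34945 single-symbol probe sets on the array. Nfkb1 had none and was not analysed here. Of the 9 genes, 8 lay above the intensity filter, a mean log2 signal of 5.91, and Rel lay below it. Bcl3, Nfkb2 and Relb passed the filter through the LED arrays, since their control means were below it.

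NF-kB acts as dimers of Rel-family proteins. In resting cells, inhibitors of the IkB family keep the dimers in the cytoplasm until receptors for cytokines or microbial products activate the IKK kinase complex, which marks the inhibitors for destruction. The freed dimers then switch on inflammatory and survival genes, and among their targets are Nfkbia, Nfkbie and Tnfaip3 themselves, which close the loop. In the injured retina the pathway has been studied mostly in microglia and Müller glia.

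Retinal RNA was measured on 9 Affymetrix mouse genome arrays from female albino mice, named Babl/c in the labels, aged 10 weeks. Of these, 3 came from mice under white LED light with a colour temperature of 7378K, 3 from mice under white LED light of 2954K and 3 from control mice in a dark environment, and each array held a pool of 3 right retinas. Light lasted 14 days in cycles of 12 hours on and 12 hours off, with the LEDs set to 1000 lx. Control mice had the same hours per the labels, which state no illuminance for them, so how much light reached them is not known. The labels name no mutation or transgene. The neurosensory layer had been separated from the pigment epithelium.

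The deposited values are signals per probe set on a log2 scale, with MAS5 named in the submitters' processing notes, and all levels below are log2 signals. Array medians lay between 6.77 and 7.03. RNA and labelling quality was read as the 5′ loss, the log2 signal at the 3′ end less that at the 5′ end, averaged over control probe sets of Gapdh and beta-actin. It was 1.80, 1.67 and 1.55 on the 7378K arrays. The 5′ loss was 2.78, 0.21 and 1.05 on the 2954K arrays and 0.33, 0.20 and 0.42 on the control arrays. The 7378K and control arrays did not overlap in this measure, so a fit that includes it separates light from quality mainly by the spread among the 2954K arrays. The third array of each group had the highest summed lens signal of its group (12.24 in 7378K, 14.52 in 2954K and 17.12 in control), and 0 of 8 lens markers over the filter were called. The arrays of all groups carried pigment epithelium transcripts (summed log2 level 14.34 to 15.38 in 7378K, 15.14 to 15.61 in 2954K and 13.76 to 15.51 in control), with 0 of 9 called. Rod markers, which define the labelled tissue, summed to 17.19 to 17.39 in 7378K, 17.17 to 17.51 in 2954K and 17.36 to 17.66 in control, and 3 of 9 were called lower under 7378K light and 0 under 2954K light.

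Sequences upstream of 4 of the members are shown first, with matches to the kappa-B consensus, the DNA word that NF-kB dimers bind, in capitals. They come from RefSeq on GRCm38.p6, run 5′ to 3′ on the strand of the gene and cover the 250 bases before an annotated transcript start. Of the Bcl3 window only the 181 bases outside the annotated gene are printed, chr7:19822825-19823005 on the minus strand. Nfkbie is chr17:45555450-45555699 on the plus strand, Tnfaip3 is chr10:19015411-19015660 on the minus strand and Nfkbia is chr12:55492648-55492897 on the minus strand.
Bcl3: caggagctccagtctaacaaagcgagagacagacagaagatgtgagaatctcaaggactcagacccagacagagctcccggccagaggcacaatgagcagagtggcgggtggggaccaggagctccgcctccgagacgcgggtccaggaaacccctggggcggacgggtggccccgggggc
Nfkbie: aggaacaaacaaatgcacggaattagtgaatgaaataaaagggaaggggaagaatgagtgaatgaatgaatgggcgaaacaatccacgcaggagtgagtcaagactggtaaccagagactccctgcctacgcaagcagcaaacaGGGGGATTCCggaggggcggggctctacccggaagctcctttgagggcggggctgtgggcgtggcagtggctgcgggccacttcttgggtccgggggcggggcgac
Tnfaip3: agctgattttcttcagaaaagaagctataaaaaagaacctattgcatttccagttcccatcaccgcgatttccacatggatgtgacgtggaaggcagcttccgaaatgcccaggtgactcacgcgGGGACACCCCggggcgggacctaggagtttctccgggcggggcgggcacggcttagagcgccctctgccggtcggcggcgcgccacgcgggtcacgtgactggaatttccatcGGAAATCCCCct
Nfkbia: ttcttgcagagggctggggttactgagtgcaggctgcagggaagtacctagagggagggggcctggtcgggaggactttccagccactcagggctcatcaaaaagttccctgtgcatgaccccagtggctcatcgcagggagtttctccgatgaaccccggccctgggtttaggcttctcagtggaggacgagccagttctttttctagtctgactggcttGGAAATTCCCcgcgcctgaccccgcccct
Both strands were searched over the whole windows, and positions are counted back from the start. Nfkbie held 1 match at positions -106 to -97, and Nfkbia held 1 at -29 to -20. The Tnfaip3 window shown held 2, at -125 to -116 and at -12 to -3, and the window of a second annotated Tnfaip3 start held 0. The Bcl3 window held 0, which says only that these letters are not in this window. Over the 10 windows of the 7 members that have one, 7 windows of 5 members (Nfkb2, Nfkbia, Nfkbie, Rel and Tnfaip3) held a match, where matches within a window may overlap. Of all 32851 such windows of 250 bases, 3.90% held one. The STAT word TTCNNNGAA stood in 1 member window, of Nfkb2, and in 7.02% of all windows. A match is a description of the letters, not a site shown to be bound.

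Under 7378K light, 2 of the 8 genes over the filter rose (Bcl3 and Nfkbie, beside 2.36% of all genes tested), 1 fell (Tnfaip3, beside 1.16%) and 5 did not pass the test (Nfkbia, Nfkbiz, Rela, Relb and Nfkb2). The test was limma's moderated test on all 12761 genes over the filter, and a gene was called at a Benjamini-Hochberg adjusted p under 0.05. The 3 calls were 37.5% of the 8, beside 3.52% of all genes tested (449 of 12761). Under 2954K light, 1 of the 8, Bcl3, rose (beside 1.03% of all genes), 0 fell (beside 0.188%) and 7 did not pass. The 1 call was 12.5% of the 8, beside 1.22% of all genes (156 of 12761). Between 7378K and 2954K light, 0 of the 8 and 0% of the 12761 genes passed, while 519 genes, among them 1 member (Tnfaip3), had an unadjusted p under 0.05. The median log2 difference of the 8 genes was 0.47 for 7378K against control and 0.57 for 2954K against control, beside 0.04 and 0.01 over all genes. Since both LED groups were set against the same 3 control arrays, these comparisons are not independent. The 8 genes are those that passed a filter on their mean signal, which Bcl3, Nfkb2 and Relb passed through the LED arrays. The members were also chosen with earlier results of these data known. The shares of the 8 are therefore descriptions and not a test against all genes.

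**Figure D1:**
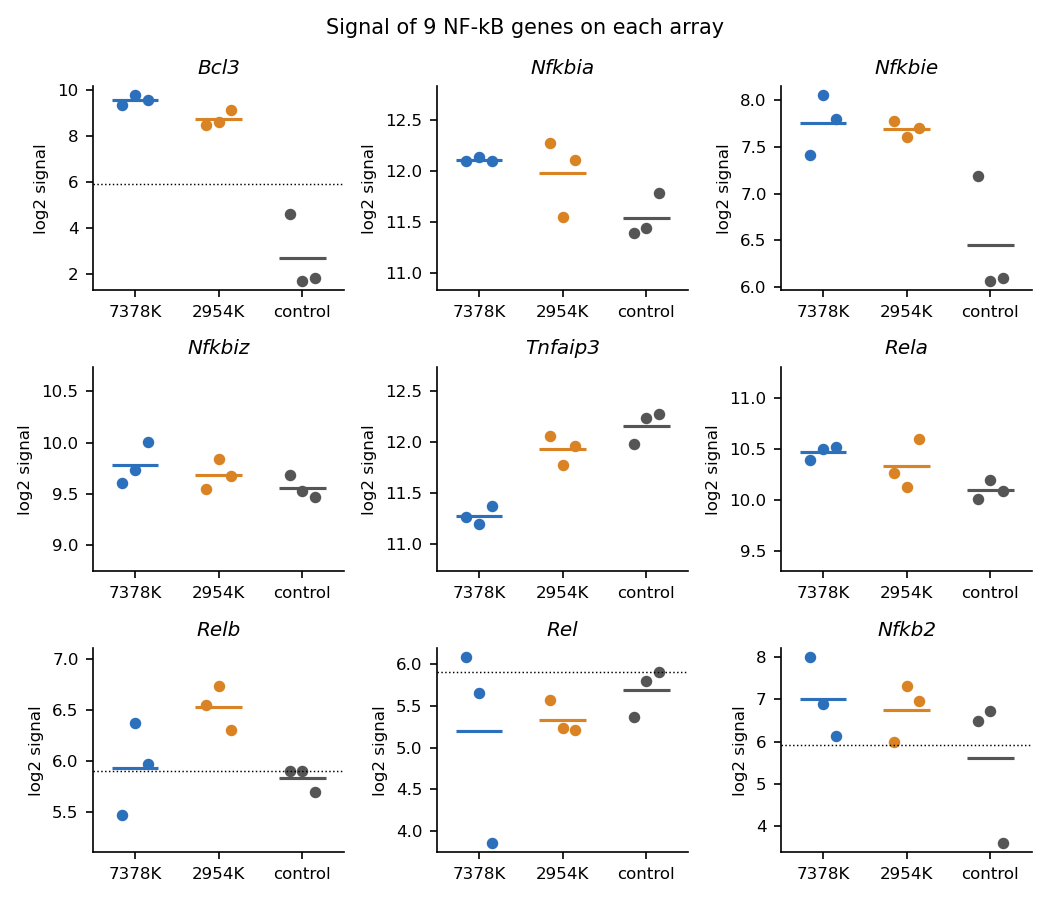
Log2 signal (vertical axes) of the main probe set of 9 NF-kB genes on each array, with 7378K, 2954K and control arrays from left to right in each panel. Points are arrays, bars are group means, dotted lines mark the filter value of 5.91, and Bcl3 stands out with all LED arrays between 8.46 and 9.77 and all control arrays at 4.59 or below.

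Bcl3, an atypical IkB that works in the nucleus and binds p50 and p52 homodimers, had 1 probe set, with log2 signals of 9.34, 9.77 and 9.56 on the 7378K arrays. It had 8.46, 8.59 and 9.13 on the 2954K arrays and 4.59, 1.69 and 1.84 on the control arrays. Every LED array was far above every control array, and the lowest 7378K array was above the highest 2954K array. Its means were 9.56 ± 0.22 in 7378K, 8.73 ± 0.36 in 2954K and 2.71 ± 1.63 in control (SD, n = 3 each). The difference was 6.85 for 7378K against control (SE 0.61, 95% interval 5.52 to 8.18, limma adjusted p = 5.2e-05) and 6.02 for 2954K against control (SE 0.61, interval 4.69 to 7.35, limma adjusted p = 0.00023). Because the control arrays lay below the filter value, the fold is given as a bound against that value: Bcl3 was at least 12.5-fold higher under 7378K light and at least 7.07-fold higher under 2954K light. Both rises were called in all 20 alternatives in which Bcl3 was kept by the filter. Leaving out single arrays gave 6.34 to 7.79 for 7378K and 5.51 to 6.96 for 2954K against control. Between 7378K and 2954K light the difference was 0.83, with an interval of -0.50 to 2.15 and a limma adjusted p of 0.98, and the interval holds 0. In bulk retina, more cells that make a transcript and more transcript per cell cannot be told apart, here and below.

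The rise of Bcl3 was 6.97 and 6.11 for 7378K and 2954K light against control with the 5′ loss in the fit (limma adjusted p 0.0017 and 0.0023). Raising all values below the filter value to it left 3.65 and 2.82, which ranked Bcl3 number 5 and number 6 by rise among the 12761 genes. Microglial transcripts moved in the same arrays: 7 of the 10 microglia markers over the filter were called higher in each LED group. Beside this, 2.36% of all genes tested rose under 7378K light and 1.03% under 2954K light. Of the 7 called markers, C1qc and Aif1 had control means of 5.02 and 5.35, below the filter value, and passed the filter through the LED arrays. The summed log2 level of the microglia markers was 13.09 to 13.23 in 7378K, 12.98 to 13.10 in 2954K and 11.23 to 11.72 in control. Of the defining markers, Tmem119 was below the filter (group means 6.43 in 7378K, 6.24 in 2954K and 4.28 in control) and P2ry12 was not called (6.49, 6.85 and 6.93 in the same order). The summed level of Müller glia markers was 15.80 to 15.98 in 7378K, 15.80 to 15.88 in 2954K and 15.66 to 15.75 in control, and 2 of 10 were called higher in each LED group. Markers of other leukocytes, of which 2 of 11 were over the filter, summed to 8.44 to 9.09 in 7378K, 7.98 to 9.24 in 2954K and 8.24 to 8.87 in control. Of these, 1 (Ptprc) was called higher under 7378K light and 0 under 2954K light. Ptprc had control signals of 5.43, 3.67 and 5.91 and also passed the filter through the LED arrays. The part of these cell types in the Bcl3 signal was not tested.

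Nfkbie, the epsilon form of the cytoplasmic inhibitors, had log2 signals of 7.41, 8.05 and 7.79 in 7378K, 7.78, 7.60 and 7.70 in 2954K, and 7.19, 6.07 and 6.10 in control. All LED arrays lay above all control arrays, with control 1 close to the lowest of them. The difference for 7378K against control was 1.30 (SE 0.31, interval 0.62 to 1.99), a 2.47-fold higher level, with a limma adjusted p of 0.043. For 2954K against control it was 1.24 with a limma adjusted p of 0.10, above the threshold. The call for 7378K was kept in 7 of the 20 alternatives in which Nfkbie was tested. Leaving out control 2 or control 3 gave a limma adjusted p of 0.17 or 0.099, leaving out 2954K 3 gave 0.060, and leaving out 7378K 1, 7378K 2 or 7378K 3 gave 0.088, 0.16 or 0.14. Over all 9 fits without 1 array the difference stayed between 1.11 and 1.67. The second Nfkbie probe set gave group means of 6.62 ± 0.04 in 7378K, 6.85 ± 0.21 in 2954K and 6.77 ± 0.56 in control (SD, n = 3 each), so the 2 probe sets of this gene disagreed. With the mean of both probe sets the difference for 7378K against control was 0.57 (limma adjusted p = 0.29), and with the 5′ loss in the fit it was 1.23 (limma adjusted p = 0.31).

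Nfkbia, the founding cytoplasmic inhibitor, had log2 signals of 12.10, 12.14 and 12.09 in 7378K, 12.27, 11.55 and 12.11 in 2954K, and 11.39, 11.44 and 11.78 in control. The 7378K arrays lay above all control arrays, and 2954K 2 lay among the control arrays. The differences of 0.57 for 7378K (SE 0.17, limma adjusted p = 0.079) and 0.44 for 2954K (limma adjusted p = 0.29) against control did not pass the test. With the 5′ loss in the fit they were 0.22 and 0.17. The other 4 probe sets of Nfkbia gave 0.65, 0.58, 0.38 and -0.09 for 7378K against control and 0.54, 0.50, 0.49 and 0.03 for 2954K against control, and none passed the test over all probe sets. Nfkbiz, a nuclear IkB that drives a subset of inflammatory genes, had 9.60, 9.73 and 10.01 in 7378K, 9.54, 9.84 and 9.68 in 2954K, and 9.68, 9.52 and 9.47 in control. The arrays of the 3 groups overlapped, and the differences of 0.22 for 7378K and 0.13 for 2954K against control did not pass the test (limma adjusted p 0.36 and 0.72). Its other probe sets gave 0.52 and -0.67 for 7378K against control and 0.49 and -0.23 for 2954K against control.

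Tnfaip3, which removes activating ubiquitin chains from signalling proteins upstream of IKK and so brakes the pathway, was the member that fell. Its log2 signal was 11.27, 11.20 and 11.38 in 7378K, 12.06, 11.78 and 11.96 in 2954K, and 11.98, 12.24 and 12.27 in control. The 7378K arrays lay below all others, while the 2954K arrays overlapped with the control arrays. The means were 11.28 ± 0.09 in 7378K, 11.93 ± 0.14 in 2954K and 12.16 ± 0.16 in control (SD, n = 3 each). The difference was -0.88 for 7378K against control (SE 0.11, interval -1.12 to -0.64), a 1.84-fold lower level, with a limma adjusted p of 0.0010, and this call held in all 21 alternatives run. For 2954K against control it was -0.23 (limma adjusted p = 0.41). The difference between 7378K and 2954K was -0.65 (interval -0.89 to -0.41), and this test of the difference itself did not pass after adjustment over all genes (unadjusted p = 7.7e-05, limma adjusted p = 0.98).

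The second, dimmer Tnfaip3 probe set had log2 signals of 5.72, 6.35 and 6.44 in 7378K, 4.39, 8.89 and 7.63 in 2954K, and 9.12, 10.24 and 9.04 in control. Ordered by their 5′ loss, the arrays had successively lower values down to 2954K 1, the array with the largest loss, except that 2954K 2 lay below all 3 control arrays. Its differences of -3.29 for 7378K (limma adjusted p = 0.071 over all probe sets) and -2.49 for 2954K (limma adjusted p = 0.32) against control were -0.85 and -0.64 with the 5′ loss in the fit. The brighter probe set gave -1.01 for 7378K against control in the same fit (limma adjusted p = 0.0020). Another fit took the 3′ minus 5′ difference of dap, a spike-in added for the labelling, in place of the 5′ loss. There the dimmer probe set gave -0.24 for 7378K and -0.95 for 2954K against control, and the brighter one -1.06 for 7378K. With the mean of both probe sets the Tnfaip3 difference for 7378K against control was -2.09 (limma adjusted p = 0.033), a value that moves with the dimmer probe set. The part of RNA quality in the values of the dimmer probe set was not tested beyond these fits.

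**Figure D2:**
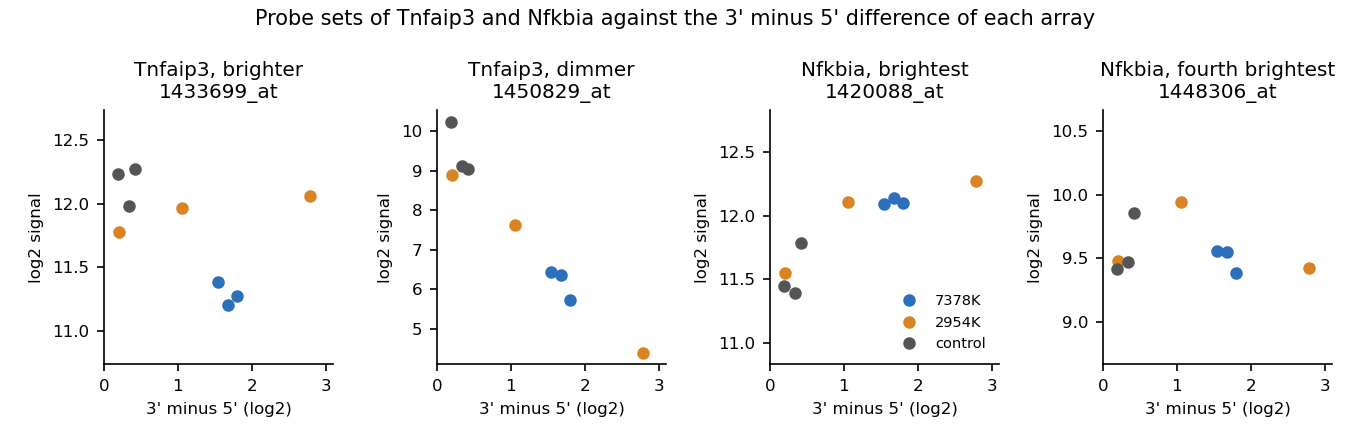
Log2 signal of the brighter and dimmer probe sets of Tnfaip3 and of the brightest and another probe set of Nfkbia (vertical axes) against the 5′ loss of each array in log2 units, the 3′ minus 5′ difference (horizontal axes), 1 point for each of the 9 arrays, coloured by group. The dimmer Tnfaip3 probe set runs from 10.24 on control 2, at a loss of 0.20, down to 4.39 on 2954K 1, at 2.78, while the brighter one separates the 7378K arrays at 11.20 to 11.38.

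None of the subunit genes passed the test. Rela, the subunit with the main activating domain, had log2 signals of 10.39, 10.50 and 10.52 in 7378K, 10.26, 10.13 and 10.60 in 2954K, and 10.01, 10.20 and 10.09 in control. The 7378K arrays did not overlap with the control arrays, but the difference of 0.37 did not pass (limma adjusted p = 0.12), and 2954K gave 0.23 (limma adjusted p = 0.46). Relb, the partner of p52 in the alternative pathway, had 5.48, 6.37 and 5.97 in 7378K, 6.55, 6.74 and 6.30 in 2954K, and 5.90, 5.91 and 5.70 in control. The 2954K arrays lay above the control arrays, by 0.69 (limma adjusted p = 0.44), and 7378K by 0.10 (limma adjusted p = 0.90).

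Nfkb2, which encodes the p52 precursor, had log2 signals of 8.0, 6.89 and 6.12 in 7378K, 5.99, 7.32 and 6.96 in 2954K, and 6.48, 6.73 and 3.59 in control. The arrays of the groups overlapped, with the lowest value on control 3. The differences of 1.40 for 7378K and 1.16 for 2954K against control did not pass the test (limma adjusted p 0.29 and 0.54). A second Nfkb2 probe set lay below the filter, with group means of 4.18 in 7378K, 4.79 in 2954K and 3.87 in control. Rel, which is prominent in lymphoid cells, lay below the filter with 6.08, 5.65 and 3.85 in 7378K, 5.57, 5.23 and 5.21 in 2954K, and 5.36, 5.80 and 5.90 in control. In a fit without a filter its differences were -0.49 for 7378K and -0.35 for 2954K against control (limma adjusted p 0.75 and 0.88) at signals below the filter.

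Over the 8 genes above the filter, the arrays of the groups did not overlap for 5 genes between 7378K and control, where 36.4% of all genes tested did not overlap. They did not overlap for 3 genes between 2954K and control, where the share was 15.2%, and for 2 genes between 7378K and 2954K, where it was 8.56%. Without overlap, Bcl3, Nfkbie, Nfkbia and Rela were higher in 7378K than in control (beside 21.6% of all genes) and Tnfaip3 was lower (14.8%). Bcl3, Nfkbie and Relb were higher in 2954K than in control (7.68%) and no member was lower (7.53%). Between 7378K and 2954K, Bcl3 was higher (5.27%) and Tnfaip3 lower (3.28%) without overlap.

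**Figure D3:**
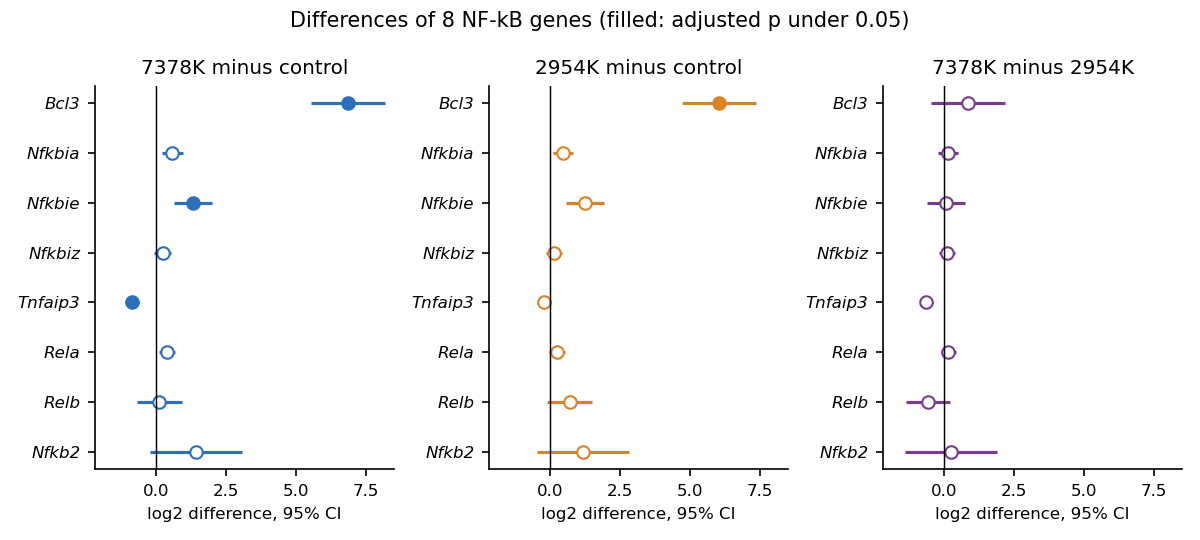
Log2 differences of the 8 NF-kB genes over the intensity filter (horizontal axes) with 95% intervals, for 7378K against control, 2954K against control and 7378K against 2954K. Bcl3 stands at 6.85 and 6.02 in the first 2 comparisons, and Tnfaip3 is below 0 by 0.88 in the first.

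The rest of the pathway was described through 4 lists of genes, chosen with earlier results of these data known. Of 18 ligands and receptors, such as Tnf and the Toll-like and interleukin-1 receptors, 10 were over the filter and 0 were called in either comparison with control by limma, while 2 under 7378K and 1 under 2954K light had an unadjusted p under 0.05. Tnf itself was below the filter, with group means of 4.04 in 7378K, 2.28 in 2954K and 3.58 in control. Of 21 adaptors and kinases, 15 were over the filter, and 2 rose under 7378K light and 1 under 2954K light. In a fit without a filter 17 of them were tested, and 3 rose under 7378K light and 1 under 2954K light. Of 13 other inhibitors and brakes, 11 were over the filter and 0 were called in either comparison with control by limma, with 2 under 7378K and 1 under 2954K light at an unadjusted p under 0.05. Of 22 target genes, 12 were over the filter, and 3 rose under 7378K light and 1 under 2954K light. In the fit without a filter 21 of them were tested, and 2 rose under 7378K light and 1 under 2954K light. Over all 12761 genes, 2.36% rose under 7378K and 1.03% under 2954K light, and 22.6% and 13.1% had an unadjusted p under 0.05. In the main fit no gene of the 4 lists was called lower, and none was called between 7378K and 2954K light. In that last comparison 1, 1, 1 and 0 genes of the lists in this order had an unadjusted p under 0.05, beside 4.07% of all genes. Among the alternatives, 1 of the other inhibitors was called lower for 7378K against control without 2954K 1, without 2954K 2 and with only the 2 groups compared. For 2954K against control 1 was called lower without 2954K 2. Target genes called higher for 7378K against control ran from 0 with the dap covariate to 5 with only the 2 groups compared. The median differences for 7378K and 2954K against control were 0.28 and 0.04 in the ligands and receptors, 0.08 and 0.11 in the adaptors and kinases, 0.01 and -0.02 in the other inhibitors, and 0.33 and 0.33 in the target genes, beside 0.04 and 0.01 over all genes. Some listed genes had control means below the filter value. Tlr2 (5.62), Cxcl1 (5.42) and Icam1 (5.64) passed the filter through the LED arrays, and Il1b (5.78) through the 7378K arrays. The counts and medians of the lists are therefore descriptions and not a test against all genes.

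Among the adaptors and kinases, Myd88, the adaptor of Toll-like and interleukin-1 receptors, had means of 8.86 ± 0.07 in 7378K, 8.88 ± 0.25 in 2954K and 8.03 ± 0.14 in control (SD, n = 3 each). It rose by 0.83 under 7378K light (limma adjusted p = 0.017) and by 0.85 under 2954K light (limma adjusted p = 0.025). Ikbkb, the IKK kinase subunit that phosphorylates IkB proteins, had 10.90 ± 0.07 in 7378K, 10.80 ± 0.22 in 2954K and 10.39 ± 0.05 in control (SD, n = 3 each), a rise of 0.51 under 7378K light (limma adjusted p = 0.034). That direction rests on its brightest probe set, since the mean of its probe sets gave -0.24. The 2954K difference of Ikbkb, 0.41, did not pass (limma adjusted p = 0.15).

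Among the target genes, Gadd45b, a stress-response gene that NF-kB can induce, had means of 9.79 ± 0.24 in 7378K, 9.60 ± 0.46 in 2954K and 7.96 ± 0.20 in control (SD, n = 3 each). It rose 3.55-fold under 7378K light and 3.12-fold under 2954K light (limma adjusted p 0.00061 and 0.0020). With the mean of its probe sets the log2 differences were 1.18 and 1.03, and the 2954K call was lost (limma adjusted p 0.016 and 0.060). Vcam1 and Icam1, adhesion molecules that let leukocytes bind, rose under 7378K light. Vcam1 had 9.08 ± 0.15 in 7378K, 8.81 ± 0.37 in 2954K and 7.99 ± 0.16 in control (SD, n = 3 each), a 2.13-fold rise under 7378K light (limma adjusted p = 0.010), and the mean of its probe sets gave -0.27. Icam1 had 7.15 ± 0.17 in 7378K, 6.98 ± 0.40 in 2954K and 5.64 ± 0.55 in control (SD, n = 3 each) and was at least 2.37-fold higher under 7378K light than the filter value (limma adjusted p = 0.038). Its control mean was below the filter value, so Icam1 passed the filter through the LED arrays. In a fit without a filter its 7378K rise was not called (limma adjusted p = 0.070). Under 2954K light Vcam1 and Icam1 did not pass the test (limma adjusted p 0.079 and 0.12). With the 5′ loss in the fit, the 7378K rises of Gadd45b and Myd88 were still called (limma adjusted p 0.018 and 0.023), and those of Vcam1, Icam1 and Ikbkb were not (limma adjusted p 0.11, 0.13 and 0.35). With the 3′ minus 5′ difference of the dap spike-in, a transcript added for the labelling, in its place, 0 genes of the 4 lists were called for 7378K against control (limma adjusted p 0.060 for Gadd45b and 0.071 for Myd88), while Gadd45b and Myd88 stayed called for 2954K against control (limma adjusted p 0.013 and 0.020). Leaving out 1 array ended the 7378K call of Vcam1 for control 1, 7378K 1 and 7378K 3 (limma adjusted p up to 0.066), and that of Ikbkb for each control and each 7378K array (up to 0.16). It ended the 7378K call of Myd88 for control 1, control 2 and each 7378K array (up to 0.080), and its 2954K call for control 1, control 2, 2954K 3 and each 7378K array (up to 0.12). It ended the 7378K call of Icam1 for control 1, control 2, 2954K 3 and each 7378K array (up to 0.14). Markers of endothelium and pericytes, cells in which Vcam1 and Icam1 are known to be made, summed to 12.83 to 12.92 in 7378K, 12.69 to 12.94 in 2954K and 12.53 to 12.65 in control, with 0 of 8 called, and their part in these values was not tested.

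**Figure D4:**
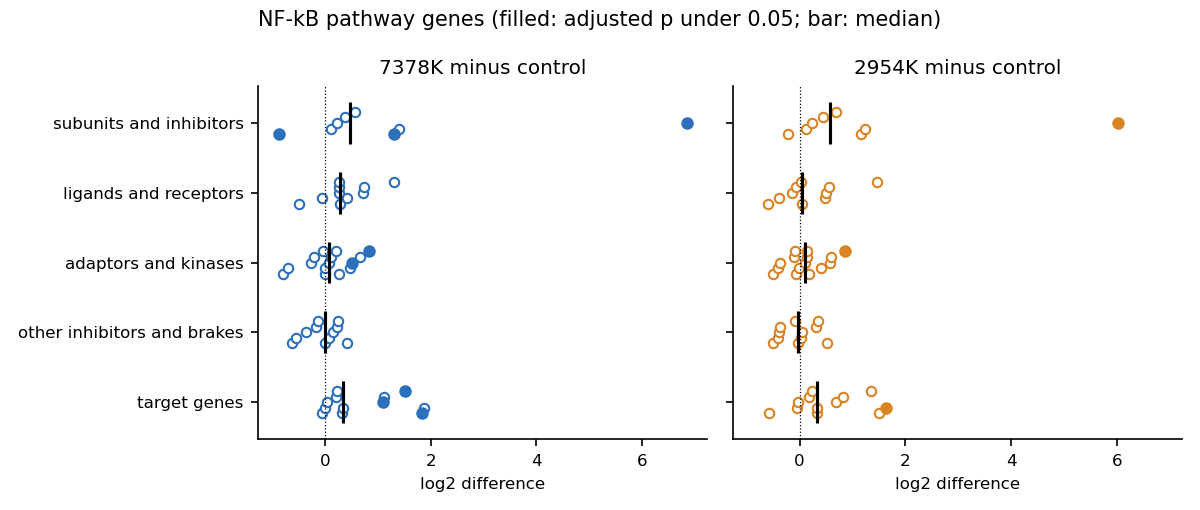
Log2 differences (horizontal axes) of the NF-kB genes and of the 4 pathway lists, 1 line for each, for 7378K against control at the left and 2954K against control at the right. Points are genes over the intensity filter and bars are medians. Points are filled where limma's adjusted p was under 0.05, and of the 4 pathway lists 5 genes are filled at the left and 2 at the right, all to the right of 0.

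The genes whose profile over the 9 arrays was most like that of Bcl3 were found by the root mean square difference between log2 signals centred on each gene's own mean, with no test. Only genes over the filter were ranked, and predicted genes (names of the Gm, Rik and LOC kinds) were left out. Bcl3's control signals in this profile lay below the filter value. Most alike were Edn2, which encodes the peptide endothelin 2 (difference 0.77), and Fgf2os, transcribed opposite to Fgf2 (1.28). Next came Cebpd, a transcription factor of the acute-phase response (1.46), and Socs3, a feedback inhibitor of cytokine receptor signalling (1.62). After them came C1qc, a chain of complement C1q made by microglia (1.80). The control mean of C1qc, 5.02 ± 2.07 (SD, n = 3), was below the filter value, so C1qc passed the filter through the LED arrays. Bcl3's own root mean square deviation was 3.15, so that a gene flat over the arrays would stand at 3.15 on this scale. The mean log2 signal of Edn2 was 13.13 in 7378K, 12.74 in 2954K and 7.50 in control. That of Socs3 was 11.04 in 7378K, 10.41 in 2954K and 7.07 in control.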

How the data were processed

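The members and gene lists were chosen with earlier results of these data known. The authors' deposited values were log2 signals per probe set, and per the submitters' processing notes MAS5 and the affy package were used, with no version, role or order given. Back-transformed, they had a common trimmed mean on all 9 arrays and were not scaled again. Probe sets (45101, of them 64 controls) were named from the platform annotation: 34945 had 1 symbol, 932 several and 9160 none.

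Each of 18193 genes kept its brightest single-symbol probe set, and those under a log2 mean of 5.91 (percentile 40 of all probe sets) were dropped, which kept 12761. The 9 arrays were fitted with 1 mean per group (6 residual degrees of freedom) by limma 3.58.1 in R 4.3.3 (eBayes with an intensity trend, version 1.17.8 of data.table), with Benjamini-Hochberg adjustment over these genes. The fit was tested on simulated data. Motifs and figures used Python 3.11.15, pandas 2.3.3 and matplotlib 3.10.9. Precision is limited by the 3 arrays per group. Each array is a separate pool per the labels.

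The text names the 10 members, genes called in 4 pathway lists (at most 5 each, by adjusted p) and the 5 genes most like Bcl3. The 7 marker lists are given as counts and sums, except defining markers and those named for their control levels. Tmem119, P2ry12 and Tnf, and Aif1, Ptprc, Il1b, Tlr2 and Cxcl1 for their control levels, were named after their values were seen. Alternatives (21) changed the filter, floor, normalisation, probe set rule, variance trend, covariate, replicate block and arrays; fits of probe sets and list counts with the covariates were added after the data were seen. Scan dates and integrity values were not analysed here.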

Additional observations from a re-analysis of the deposited data

How the results depend on the processing

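Over 21 alternatives, 667 single values were recomputed: 585 kept direction and side of the threshold, 59 fell below it, 6 passed it and 17 turned direction. Tnfaip3 stayed called for 7378K against control in all 21, and Bcl3 in the 20 that kept it. Under 2954K light against control the number of NF-kB genes called was 1, with 0 under the 60th percentile filter, which leaves Bcl3 out, and 1 to 2 without single arrays (2 without control 1, which adds Nfkbie, and without 2954K 2, which adds Nfkbia). Under 7378K light against control it was 3, with 1 under the 60th percentile filter, 5 with only the 2 groups compared in the fit, and 2 to 4 without single arrays. Between 7378K and 2954K it was 0 throughout. Over all genes, 449 calls for 7378K against control became 77 with the dap covariate, 136 with the Gapdh and beta-actin covariate and 2174 with only the 2 groups compared. For 2954K against control, 156 became 68 with only the 2 groups compared and 897 without 2954K 2, and for 7378K against 2954K, 0 became 29 without 2954K 1. The cause was not tested. Same-numbered arrays deviated together weakly (9 correlations of 0.06 to 0.33, of which 5 were over 0.1), while correlations between arrays of different number ran from -0.27 to 0.09. Deviations were taken from the group mean and cancel within a group, so positive same-numbered correlations in part force the others lower. The numbers were not taken as pairs in the main fit, and whether they mark a shared batch was not tested. The replicate block gave 3 NF-kB genes for 7378K, 1 for 2954K and 0 between 7378K and 2954K, with 638, 163 and 0 genes in all.

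Values that turned direction belonged to results not called in the main fit, except for Ikbkb and Vcam1. Both were called higher for 7378K against control in the main fit. With the mean of probe sets they became -0.24 and -0.27 and were not called (limma adjusted p 0.81 and 0.75). Without single arrays, Relb for 7378K against control ran between -0.11 and 0.33. For 7378K against 2954K without single arrays, Nfkb2 ran between -0.25 and 0.69, Nfkbia between -0.080 and 0.28, Nfkbie between -0.089 and 0.23, and Nfkbiz between -0.019 and 0.18. In the same comparison the mean of probe sets gave -0.087 for Nfkbie and -0.10 for Nfkbiz, the dap covariate gave -0.12 for Nfkbia and -0.0055 for Nfkbie, and leaving out the third arrays gave -0.024 for Nfkbiz. For 2954K against control with the Gapdh and beta-actin or the dap covariate, the second Nfkbie probe set gave -0.015 and -0.028, and the Nfkbiz probe set with a difference of -0.23 without a covariate gave 0.10 and 0.032.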
